A study of Mus musculus with 3 samples.

Results

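The genes Ccl2, Ccl7, Ccl11, Ccl12, Ccl8, Ccl1, Ccl5, Ccl9, Ccl3 and Ccl4 encode CC chemokines and lie in 2 clusters on mouse chromosome 11. They were chosen by name, and they are 10 of the 22350 protein-coding genes that GENCODE M1 annotates on chromosomes 1 to 19 and X of mm9. The Ccl2 cluster holds 6 of them, from Ccl2 to Ccl1, and the Ccl5 cluster holds 4, from Ccl5 to Ccl4. For each gene, the H3K4me1 enriched regions that overlapped it or lay within 20 kb of any of its annotated transcriptional start sites (TSS) were taken, together with every region between the genes of a cluster. This gave 17 of the 65709 regions in the list, 9 at the Ccl2 cluster and 8 at the Ccl5 cluster.

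The regions came from chromatin immunoprecipitation and sequencing (ChIP-seq) of histone 3 lysine 4 monomethylation (H3K4me1) in mouse pancreatic islets. Islets recovered for 4 to 6 hours after isolation and were then kept in culture medium for 4 days with IFNγ at 1.6 ng/ml, Il-1β at 0.25 ng/ml and TNFα at 0.16 ng/ml. The sample labels give the mice as CD1, aged 8 to 12 weeks, whereas the methods of the study name ICR mice, and neither mentions a transgene or a deletion. The study asked where these cytokines alter H3K4me1. Islets are a mixture of endocrine, vascular and resident immune cells, and islets of several mice and DNA of several immunoprecipitations were pooled into 1 library. There is therefore no replicate, no error can be set on any value below, and no difference below has a test across samples. The list gives the position of each region without a read count or a height, so the depth behind a region is unknown. H3K4me1 in untreated islets and the RNA levels of these genes were not analysed here, so nothing below is a change caused by the cytokines.

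CC chemokines are small secreted proteins that attract leukocytes through G protein coupled receptors, and most genes of the family arose by tandem duplication, which left them side by side. Several are induced by NF-κB, the transcription factor that Il-1β and TNFα activate, and by STAT and interferon regulatory factors downstream of IFNγ. H3K4me1 marks enhancers and the flanks of promoters that are active or poised, and a region of it does not by itself show that a gene is transcribed.

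A region covered a TSS of 1 of the 10 genes, Ccl2, beside 39.1% of all protein-coding genes (8749 of 22350) and 48.7% of the 1653 on chromosome 11. A region overlapped or lay within 20 kb of 9 of the 10, all but Ccl11, beside 76.4% of all protein-coding genes (17066) and 87.7% of those on chromosome 11 (1449). Within 20 kb on each side of the first TSS of the protein-coding transcripts, the regions covered a median of 0.6 kb at these 10 genes. The same median was 3 kb over all protein-coding genes and 5 kb over those of chromosome 11. The median distance from this TSS to the nearest edge of a region was 7186.5 bp for the 10 genes, 939.5 bp for all protein-coding genes and 477 bp for those of chromosome 11. The number of chemokine genes with a region in the neighbourhood is thus close to the share on chromosome 11, and Ccl2 alone had one on its start site. Neighbours share regions: 1 region counted for both Ccl2 and Ccl7, 1 for Ccl12 and Ccl8, and 1 for Ccl3 and Ccl4, so the genes are not independent of each other.

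**Figure D1:**
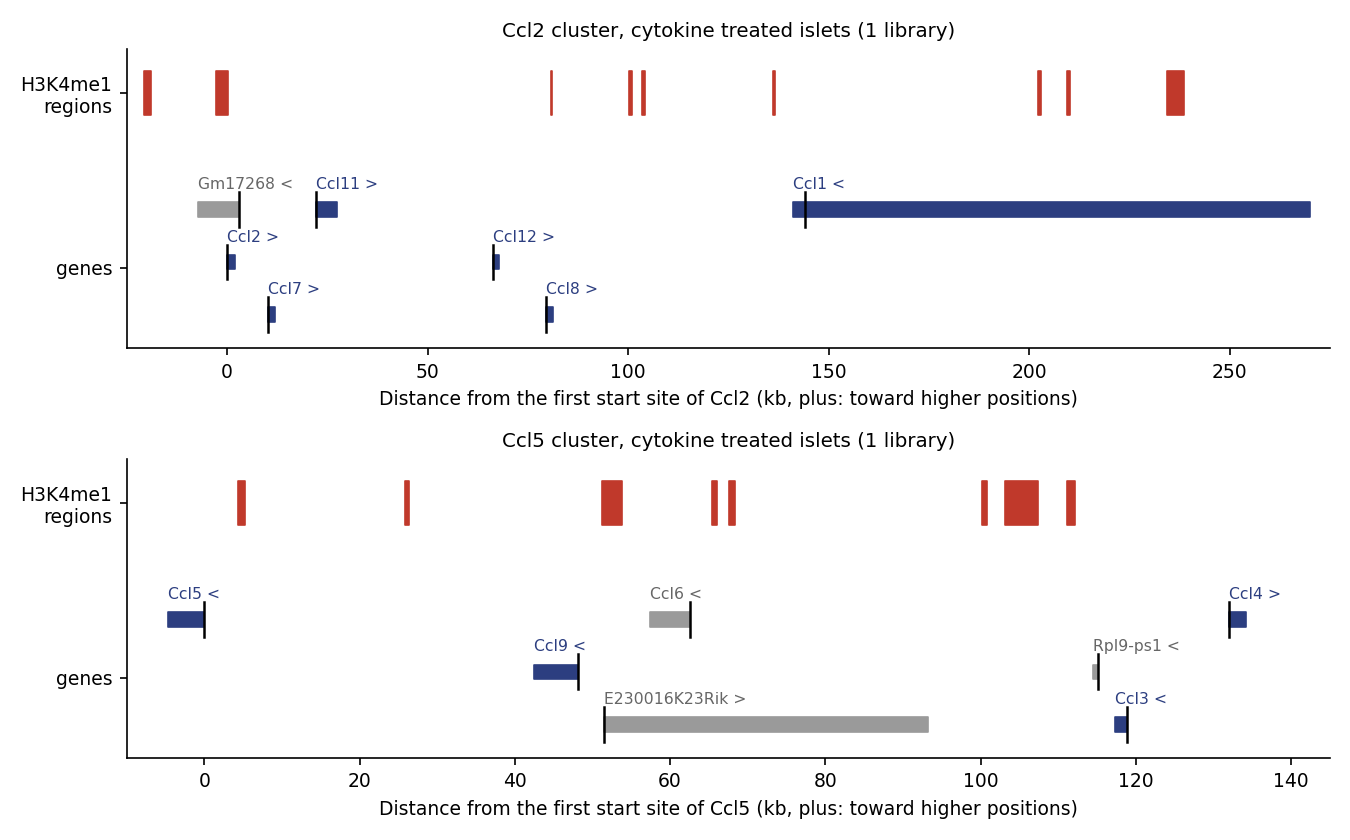
Maps of both clusters, drawn to scale, with distance in kb from the first TSS of Ccl2 (upper panel) or Ccl5 (lower panel) on the x axis. Red boxes are H3K4me1 regions, blue boxes are the 10 chemokine genes, grey boxes are other annotated genes, black lines are first start sites (of protein-coding transcripts for the 10 genes) and arrowheads give the strand. A region lies on the start site of Ccl2, and an empty stretch of 80.4 kb follows it.

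Ccl2 encodes a chemoattractant of monocytes that acts through the receptor Ccr2. The gene runs from 81849073 to 81850955 on the plus strand of chromosome 11, and its nearest region, chr11:81846401-81849400, was 3000 bp wide. The region began 2672 bp upstream of the first TSS and ended 327 bp downstream of it, over the beginning of the gene, so nearly all of it lay on the upstream side. It also lay in an intron of Gm17268, a gene annotated on the opposite strand across Ccl2, whose own TSS was 2664 bp away from the region. A further region of 1600 bp, chr11:81828401-81830000, lay 19073 bp upstream of Ccl2 outside any annotated gene. Together they covered 3.93 kb within 20 kb of the TSS, of which 3.6 kb was upstream. That length placed Ccl2 at percentile 57.2 of all protein-coding genes, near the middle, while its distance of 0 bp placed it at percentile 15.6.

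The sequence under the regions was searched on both strands for letters bound by the factors named above and by AP-1, a further transcription factor. The letters were GGGNNNTTCC for NF-κB, GAAANNGAAA for interferon response elements, TTCNNNGAA for STAT and TGANTCA for AP-1. The region over the TSS of Ccl2 held 4 NF-κB matches, of which 3 stood close together near its upstream end. These 3 are shown because they lie in the only region that covered the start site of a chemokine gene here. The 300 bases are from mm9, plus strand, chr11:81846544-81846843, and the capitals mark the NF-κB matches.
Ccl2, upstream end of the region: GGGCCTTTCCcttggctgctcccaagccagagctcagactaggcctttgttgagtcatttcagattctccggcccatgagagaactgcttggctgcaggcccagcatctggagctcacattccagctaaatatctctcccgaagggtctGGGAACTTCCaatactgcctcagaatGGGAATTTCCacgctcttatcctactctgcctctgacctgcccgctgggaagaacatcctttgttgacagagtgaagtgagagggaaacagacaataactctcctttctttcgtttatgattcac

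The matches read GGGCCTTTCC, GGGAACTTCC and GGGAATTTCC, and their first bases lay 2529, 2380 and 2354 bp upstream of the TSS, the last pair 26 bp apart. The fourth match, GGGTGTTTCC on the minus strand, lay 146 bp upstream. The same region held STAT matches at 319 and 151 bp upstream, of which the nearer, TTCCTGGAA, overlaps the nearest NF-κB match. It also held AP-1 matches at 2479 bp (TGAGTCA) and 2237 bp (TGATTCA) upstream, the former between the most distant NF-κB match and the close pair, and no interferon response element match. Of the 1179 regions of this width in the list, 348 (29.5%) held at least 1 NF-κB match and 3 (0.254%), this one included, held 4 or more. A match to letters is a description of the sequence, and no factor was measured here.

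The region upstream of Ccl2 held 1 NF-κB match, GGGACTTTCC on the minus strand, 19328 bp before the TSS. It is shown with its surroundings because it is the only NF-κB match of the other Ccl2 region, in 60 bases of mm9, plus strand, chr11:81829720-81829779. The capitals mark the match as it reads on the plus strand.
Ccl2, region 19 kb upstream: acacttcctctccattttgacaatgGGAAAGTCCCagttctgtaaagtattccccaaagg
Of the 3186 regions of 1600 bp, 19.6% held at least 1 such match.

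Ccl7, Ccl11 and Ccl12 follow Ccl2 on the same strand, and no region lay in any of them. Ccl7, another attractant of monocytes, starts at 81859214, and its only region within 20 kb was the one over the TSS of Ccl2, whose edge lay 9814 bp upstream. Ccl11, which encodes eotaxin, an attractant of eosinophils, starts at 81871325 and had none within 20 kb, its nearest being that same region at 21.9 kb. Ccl12, a mouse ligand of Ccr2 close to Ccl2 in sequence, starts at 81915347 and had only the region in Ccl8, at 14.5 kb downstream. For all 3, the nearest region thus lay in or across the start of another chemokine gene. The covered length within 20 kb of the TSS was 3 kb for Ccl7, 0 kb for Ccl11 and 0.4 kb for Ccl12, or percentiles 50.5, 12.7 and 26.6 of all protein-coding genes.

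Ccl8, whose mouse product acts on Ccr8, starts at 81928687 and held a region of 400 bp inside the gene, chr11:81929801-81930200. Its edge was 1114 bp downstream of the TSS, the shortest distance after Ccl2 among the 10 genes, and it lay over the second intron and the last exon. Only 8.96% of all regions were narrower, with ties counted as 50% below. It is shown because it was the only region within a neighbour of Ccl2 in the compact row of 5 genes and held an NF-κB match, GGGATTTTCC. The 60 bases are from mm9, plus strand, chr11:81929801-81929860, with the match in capitals, and lie at the start of the region.
Ccl8, region in the gene: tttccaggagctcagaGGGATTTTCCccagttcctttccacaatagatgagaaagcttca
An NF-κB match was held by 5.63% of the 7888 regions of 400 bp.

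Between the end of the Ccl2 region and the beginning of the Ccl8 region, from 81849401 to 81929800, no region was listed for 80.4 kb. This stretch holds the whole of Ccl7, Ccl11 and Ccl12, most of Ccl2 and the start site of Ccl8. The intervals between these genes were empty: 8.26 kb from Ccl2 to Ccl7, 10.3 kb from Ccl7 to Ccl11, 38.9 kb from Ccl11 to Ccl12 and 11.8 kb from Ccl12 to Ccl8. The median gap between neighbouring regions was 8.6 kb on chromosome 11, where 259 of 4368 gaps (5.93%) were at least as long, and 10.6 kb over chromosomes 1 to 19 and X, where 8.89% were. Long gaps hold many genes: the first TSS of 27.8% of all protein-coding genes and of 16.3% of those on chromosome 11 lay in a gap of 80.4 kb or more. A gap of this kind is therefore not particular to the chemokine genes. No base of it is unknown in mm9.

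These genes are related in sequence, and short reads can be placed only in sequence that occurs once. Words of 36 bases, taken every 20 bases within 2 kb of each first TSS, were counted in the whole genome. Ccl12 had 100% unique words, Ccl7 and Ccl8 99.5%, and Ccl2 and Ccl11 98.0% each. The lowest share among the 10 genes was 92.5%, at Ccl9, beside a median of 97.0% and a lower quartile of 93.5% for the protein-coding genes of chromosome 11. Over the whole 80.4 kb gap 96.3% of the words were unique, with 99.8% from Ccl2 to Ccl7, 99.4% from Ccl7 to Ccl11, 95.7% from Ccl11 to Ccl12 and 92.7% from Ccl12 to Ccl8. The read length of the library is not given in the sources used here, and the part of read placement in the missing regions was not tested.

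Ccl1 encodes an attractant of T cells and monocytes that acts on Ccr8, and it lies apart from the other genes of the cluster on the minus strand. Its protein-coding transcripts start at 81993316, but a processed transcript extends the annotated gene to 82119192, or 129034 bp in all. The nearest region to the protein-coding TSS, chr11:81985201-81985600, lay 7716 bp downstream, beyond the end of the gene, and the covered length within 20 kb was 0.4 kb. Overlap with the long transcript added 3 regions of 600, 600 and 4000 bp, which lay 58.1, 65.3 and 90.3 kb upstream of the protein-coding TSS. The assignment of these 3 to Ccl1 rests on that transcript alone. The interval of 59.9 kb from Ccl8 to Ccl1 held 3 regions over 1.8 kb (3.01%), of which those at chr11:81949401-81950000 and chr11:81952601-81953400 were more than 20 kb from every TSS of the 10 genes. In this interval 79.9% of the words of 36 bases were unique, the lowest share of the 8 intervals.

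**Figure D2:**
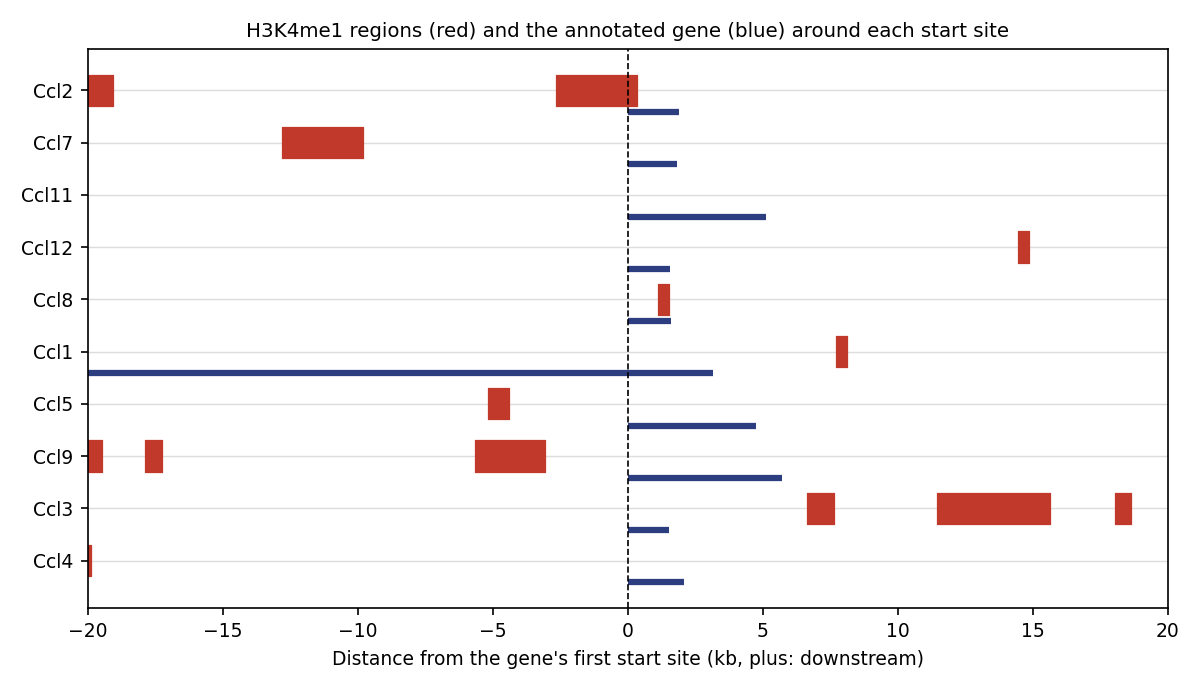
H3K4me1 regions (red boxes) and the annotated gene (blue line) within 20 kb of the first TSS of the protein-coding transcripts, 1 row per gene, with distance in kb on the x axis and transcription running to the right. Ccl2 has a region across 0, Ccl8 has one 1114 bp downstream, and the Ccl11 row is empty.

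In the Ccl5 cluster, no start site of the 4 chemokine genes was covered. Ccl5, or RANTES, attracts T cells and monocytes, and its gene runs from 83339280 to 83344020 on the minus strand. Its only region, chr11:83348401-83349200, was 800 bp wide and lay 4381 bp upstream of the TSS, outside annotated genes. None of the 4 motifs matched inside it.

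Ccl9, a macrophage product that acts on Ccr1, starts at 83392138 on the minus strand, and 4 regions were assigned to it. The nearest, chr11:83395201-83397800, was 2600 bp wide and began 3063 bp upstream, the next shortest distance after that of Ccl8. It covered the TSS of E230016K23Rik, a lincRNA transcribed in the opposite direction from 83395558, so it lies at an annotated start site, though not that of a chemokine. The other regions were 600 to 800 bp wide: chr11:83369801-83370400 downstream, and chr11:83409401-83410000 and chr11:83411601-83412400 in an intron of the lincRNA. The latter pair lie upstream of Ccl6, a related gene on the minus strand from 83401384 to 83406589 that had 3 regions within 20 kb, the nearest 2812 bp from its TSS. The 2600 bp region held 1 NF-κB, 1 interferon response element and 4 STAT matches. As many STAT matches were found in 17 of the 1544 regions of this width (1.10%), an NF-κB match in 30.4% and an interferon response element match in 31.0%. The stretch that holds both the NF-κB and the interferon response element match is shown because the nearest regions of the other 9 genes held no interferon response element match. The 153 bases are from mm9, minus strand, chr11:83396405-83396557, and the capitals mark GGGACATTCC and GAAACAGAAA.
Ccl9, upstream region: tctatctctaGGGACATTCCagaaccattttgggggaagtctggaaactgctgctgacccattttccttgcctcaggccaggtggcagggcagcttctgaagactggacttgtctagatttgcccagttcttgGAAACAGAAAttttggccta

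Ccl3 and Ccl4 encode macrophage inflammatory proteins that attract monocytes and T cells, and their genes are transcribed away from each other. Ccl3 starts at 83462857 on the minus strand and had 3 regions, all downstream, at 6657, 11457 and 18057 bp, of 1000, 4200 and 600 bp. They covered 5.8 kb within 20 kb of the TSS, the longest covered length of the 10 genes (percentile 68.8), although none touched the gene. The region of 4200 bp, chr11:83447201-83451400, was the widest at either cluster and held 2 interferon response element matches that overlap each other, 3 STAT and 2 AP-1 matches. Ccl4 starts at 83476086 on the plus strand, and only the nearest region of Ccl3, chr11:83455201-83456200, came within 20 kb of it, at 19886 bp upstream, so 0.115 kb was counted. Between this region and Ccl3 lies the pseudogene Rpl9-ps1, whose TSS was 2923 bp from the region. From 83456201 to 83567000, a gap of 110.8 kb held both Ccl3 and Ccl4, and 162 gaps of chromosome 11 (3.71%) were at least as long. In it 93.1% of the words of 36 bases were unique.

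The intervals of the Ccl5 cluster differed from each other. From Ccl5 to Ccl9, 2 regions covered 1.4 kb of 42.4 kb (3.30%), and from Ccl3 to Ccl4 the 13.2 kb held none. From Ccl9 to Ccl3, an interval of 69.2 kb that also holds E230016K23Rik, Ccl6 and Rpl9-ps1, 6 regions covered 9.8 kb (14.2%). Most of the covered length of this cluster thus lay between Ccl9 and Ccl3.

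**Figure D3:**
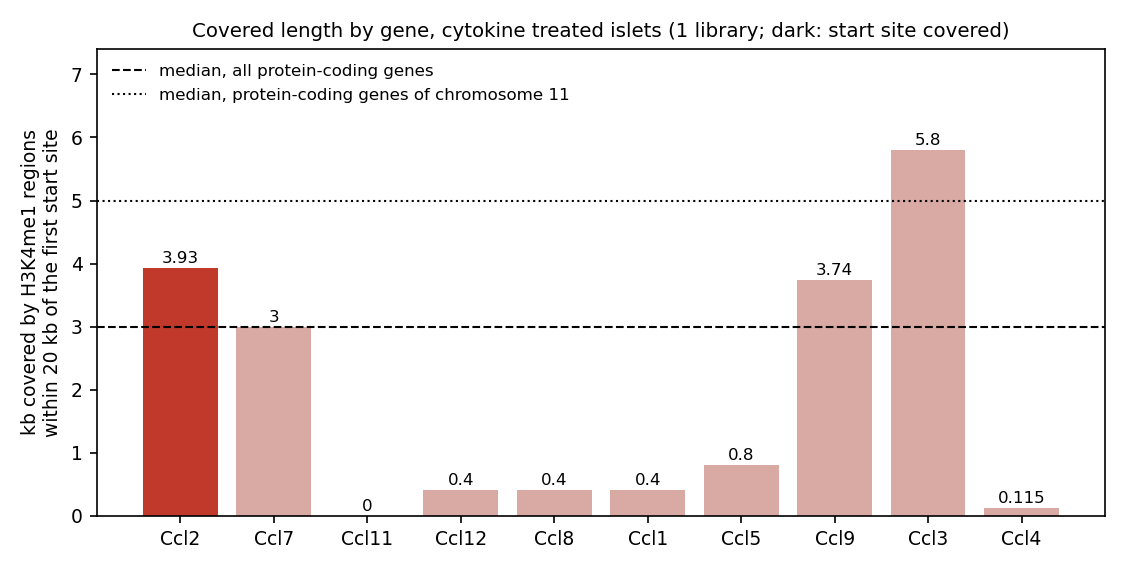
Length covered by H3K4me1 regions (kb, linear axis from 0) within 20 kb on each side of the first TSS of the protein-coding transcripts, 1 bar per gene, from 1 library without error bars. Ccl2, the only gene with a covered start site (dark bar), reaches 3.93 kb, Ccl3 reaches 5.8 kb, and 6 genes lie at 0.8 kb or less, under the medians of 3 kb (all protein-coding genes, dashed) and 5 kb (chromosome 11, dotted).

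Over the whole clusters, regions covered 2.86% of the 270.1 kb from Ccl2 to the far end of Ccl1 and 8.06% of the 138.9 kb from Ccl5 to Ccl4, beside 8.94% of chromosome 11. When the Ccl2 cluster was taken only to the protein-coding TSS of Ccl1, the share was 1.75% of 144.2 kb, with 5 regions. Stretches of the same length beside the Ccl2 cluster were covered to 14.7% on the lower side, where Accn1 and 5530401A14Rik lie, and to 2.15% on the upper side. Beside the Ccl5 cluster these shares were 10.4% and 4.46%. Over these spans each cluster thus lay between a more covered and a less covered flank, the Ccl2 cluster, at 2.86%, close to its less covered one. The flanks of the Ccl2 cluster were taken beside the span with the long Ccl1 transcript, and none were taken beside the shorter span. Both spans begin at the start of Ccl2, so only 328 bp of the region over its TSS is counted in them. The rest of that region and the further region upstream of Ccl2 are counted in the flank on the lower side. The 17 regions were 400 to 4200 bp wide with a median of 800 bp, while the median was 1200 bp for all regions and 1400 bp for those of chromosome 11. Of the 17, 12 were not wider than the median of all regions and 9 lay outside annotated genes. The share of all regions that lie outside annotated genes is not given here, so the 9 cannot be set against it.

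The sequence just upstream of the start sites was compared for all 10 genes, since 9 of them had no region there. Within 250 bases of the first TSS, NF-κB matches were found at Ccl2, Ccl1, Ccl5 and Ccl9, or 4 of 10, beside 4.76% of all protein-coding genes. STAT matches were found at Ccl2 and Ccl11 (6.81% of all genes), AP-1 matches at Ccl7 and Ccl9 (5.88%), and no interferon response element match at any (3.43%). With 1000 bases, the numbers of genes were 5 for NF-κB (13.7% of all genes), 6 for STAT (27.7%), 3 for AP-1 (23.5%) and 1, Ccl4, for the interferon response element (13.7%). The NF-κB letters were therefore also present at the start sites of Ccl1, Ccl5 and Ccl9, none of which had a region over it.

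RefSeq promoter sequences were at hand for 5 of the 10 genes, Ccl1, Ccl12, Ccl8, Ccl3 and Ccl9, and each of them matched mm9 at a single place. Their 250 bases before the RefSeq start site are shown because they set start sites with and without NF-κB letters side by side, all of them without a region. Ccl1 (minus strand, chr11:81993315-81993564) holds 2 matches that overlap on opposite strands and Ccl9 (minus strand, chr11:83392139-83392388) holds 1, in capitals. Ccl12 (plus strand, chr11:81915097-81915346), Ccl8 (plus strand, chr11:81928437-81928686) and Ccl3 (minus strand, chr11:83462881-83463130) hold none. The RefSeq start site of Ccl3 lies 23 bases upstream of that in GENCODE M1, and that of Ccl1 2 bases downstream.
Ccl1: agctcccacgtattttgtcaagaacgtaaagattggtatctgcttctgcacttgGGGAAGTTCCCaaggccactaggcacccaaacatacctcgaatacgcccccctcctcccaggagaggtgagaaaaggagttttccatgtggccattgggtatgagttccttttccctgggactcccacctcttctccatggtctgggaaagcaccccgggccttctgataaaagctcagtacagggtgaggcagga
Ccl9: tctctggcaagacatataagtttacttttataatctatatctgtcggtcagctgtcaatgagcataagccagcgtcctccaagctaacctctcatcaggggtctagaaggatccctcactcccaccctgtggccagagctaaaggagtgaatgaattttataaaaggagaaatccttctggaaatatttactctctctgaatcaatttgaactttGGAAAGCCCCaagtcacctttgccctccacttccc
Ccl12: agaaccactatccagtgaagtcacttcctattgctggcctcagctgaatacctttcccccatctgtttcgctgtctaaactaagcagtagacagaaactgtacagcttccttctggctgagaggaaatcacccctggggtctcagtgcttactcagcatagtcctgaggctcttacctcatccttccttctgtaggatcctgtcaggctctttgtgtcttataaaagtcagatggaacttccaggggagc
Ccl8: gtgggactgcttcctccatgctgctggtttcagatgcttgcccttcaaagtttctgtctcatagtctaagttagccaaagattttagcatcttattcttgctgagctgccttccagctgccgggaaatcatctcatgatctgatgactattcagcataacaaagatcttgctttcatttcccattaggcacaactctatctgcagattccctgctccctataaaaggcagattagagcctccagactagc
Ccl3: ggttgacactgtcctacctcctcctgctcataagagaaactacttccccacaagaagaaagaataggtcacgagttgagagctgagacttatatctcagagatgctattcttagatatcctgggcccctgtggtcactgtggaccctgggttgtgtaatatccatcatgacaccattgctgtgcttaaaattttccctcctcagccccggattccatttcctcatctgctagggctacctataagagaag

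To set Ccl2 beside its neighbours over equal lengths, the stretch from 2672 bp upstream to 327 bp downstream of the first TSS, which is the extent of the Ccl2 region, was searched at every gene. NF-κB matches numbered 4 at Ccl2, 3 at Ccl9, 2 each at Ccl1 and Ccl5, 1 each at Ccl8 and Ccl4, and 0 at Ccl7, Ccl11, Ccl12 and Ccl3. In this stretch Ccl2 had the most matches of its cluster and the 3 genes after it had none, but the order depends on the length searched. Within 250 or 1000 bases upstream of the first TSS, Ccl1 and Ccl5 had 2 matches each and Ccl2 and Ccl9 had 1 each, and Ccl4 had 1 within 1000 bases only. The 2 at Ccl1 begin 194 and 193 bp upstream on opposite strands, so they overlap and are counted 2 times in each of these searches. Across all protein-coding genes, 32.4% had at least 1 match in this stretch and 31 genes (0.139%) had 4 or more. STAT matches did not follow the same order, with 3 at Ccl7 and 2 each at Ccl2, Ccl11, Ccl12 and Ccl3. Ccl8 and Ccl1 had 1 each, so 7 of the chemokine genes held a STAT match in this stretch. Of all protein-coding genes, 62.2% held at least 1 there and 25.6% held 2 or more. Interferon response element matches were found once each at Ccl7, Ccl11, Ccl12, Ccl8 and Ccl4 and not at Ccl2. Of all protein-coding genes, 35.0% had at least 1 interferon response element match in this stretch. The stretch was set by the Ccl2 region itself and chosen after the matches in that region were seen, so it describes these genes and is no test.

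**Figure D4:**
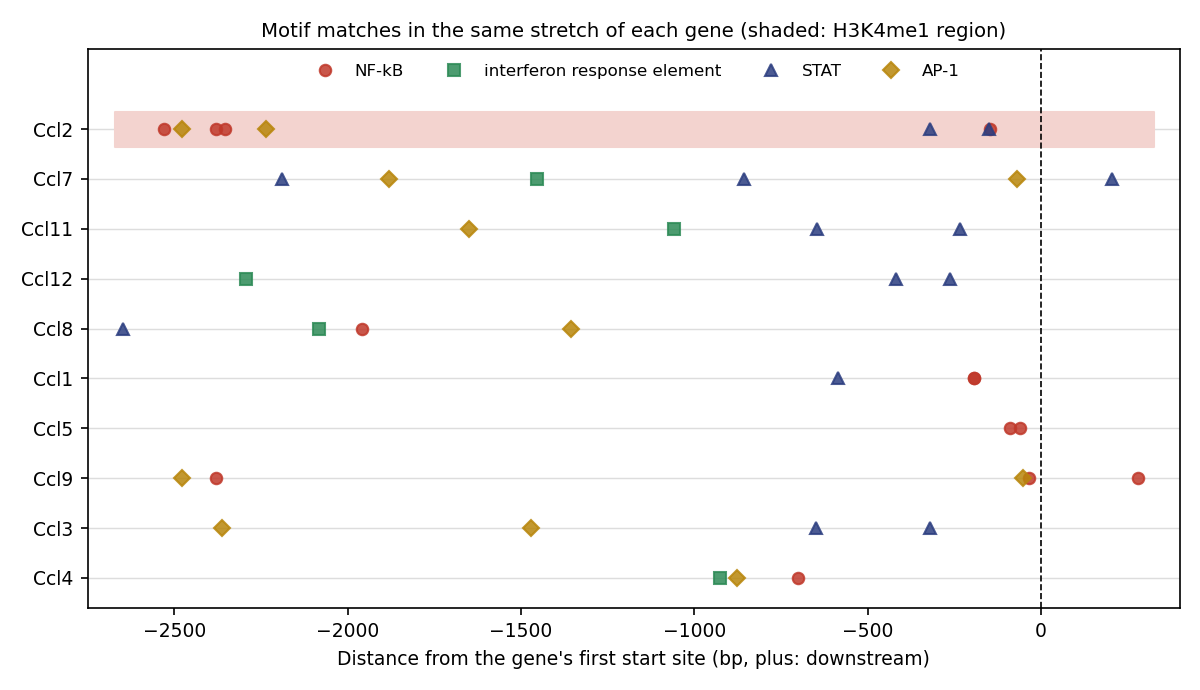
Positions of the 4 searched motifs, by symbol, from 2672 bp upstream to 327 bp downstream of the first TSS (x axis, bp) of each gene, with transcription running to the right and the H3K4me1 region shaded. The NF-κB circles number 4 in the shaded Ccl2 row and 0 in the rows of Ccl7, Ccl11, Ccl12 and Ccl3.

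An NF-κB match was held by 4 of the 17 regions, beside 20.9% of all 65650 regions on chromosomes 1 to 19 and X, a STAT match by 7 (40.2% of all regions), an AP-1 match by 8 (43.1%) and an interferon response element match by 3 (23.7%). Counted by regions, the chemokine clusters were thus close to the list as a whole, and no difference was tested. Counted by length, NF-κB matched 7 times, or 0.302 per kb beside 0.135 per kb in all regions, STAT 15 times (0.647 per kb, beside 0.332), AP-1 11 times (0.474, beside 0.366) and the interferon response element 5 times (0.216, beside 0.166). Of the 7 NF-κB matches, 4 lie in the region over the TSS of Ccl2 and 1 in the region upstream of it.

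Ccr2, the receptor of Ccl2, Ccl7 and Ccl12, and Ccr1, a receptor of Ccl3, Ccl5 and Ccl9, had no region within 20 kb. Ccr3, the receptor of Ccl11, and Ccr4, which binds Ccl17 and Ccl22, had one at 6698 and 1739 bp from the first TSS. Over 12 receptors of CC chemokines, a start site was covered at 2, Ccr9 and Ccr10, a region lay in the gene or within 20 kb at 8, and the median covered length was 0.8 kb, beside 39.1%, 76.4% and 3 kb over all protein-coding genes. Among 9 CC chemokine genes elsewhere in the genome, a start site was covered at 1, Ccl25, and a region lay near 7. Of these, Ccl20, Ccl17 and Ccl22 had one at 2460, 2553 and 7890 bp, and Ccl19 had none within 20 kb. The 7 of 9 is near the share of 76.4% over all protein-coding genes.

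Markers of the cell types in islets were read in the same way. The 12 endocrine markers had a median of 12.9 kb covered within 20 kb of the TSS (range 0 to 19.2 kb), with a start site covered at 3 (25%) and a region in the gene or within 20 kb at 11, all but Gcg. Over all protein-coding genes, a start site was covered at 39.1% and a region lay in the gene or within 20 kb at 76.4%. Their median covered length was 3 kb. The endocrine share of covered start sites was thus below that of all genes. Leukocytes also express the chemokines described here. Of 11 matched leukocyte markers, a start site was covered at 1, Cd68, a region lay near 7, and the median covered length was 0.6 kb (range 0 to 12.7 kb). Among the defining markers, Emr1, Itgam, Lyz2 and Cd3e had no region within 20 kb, Ptprc had 0 kb covered around its first TSS, and Csf1r had 0.6 kb covered, with a region 8826 bp away. The 8 endothelial and stromal markers had a median of 1.6 kb, with 5 start sites covered, and the 6 exocrine markers 2.7 kb, with 2 covered. Which cells of the islet carry the regions at the chemokine genes was not tested.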

How the data were processed

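The authors mapped the H3K4me1 reads to mm9 with bowtie2 (Bowtie2 2.2.1 in the submitters' processing notes) and called enriched regions with ChromHMM, whose version and settings are not given in the sources used here. The deposited list holds chromosome, start and end on a grid of 200 bp, with no count, score or p-value, and whether it precedes the study's merging of libraries is not stated. RNA-seq and untreated islets were not used here.

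From it, 1 was added to each start. Overlaps and distances to GENCODE M1 start sites, motif matches and unique words were computed with Python 3.11.15, numpy 2.4.6, pandas 2.3.3 and matplotlib 3.10.9, and the steps were tested on simulated data. The named genes are the 10 members, every gene inside the clusters, genes that a described region overlaps and up to 4 genes of each marker or pathway list in its written order. Further list genes (Cd68, Cd3e, Lyz2, Ccr9, Ccr10, Ccl25) and flanking genes were named after their values were seen. The members and lists were chosen with earlier results of these data known. Alternatives were other region widths, edges, distance limits, start sites, spans, word lengths and upstream lengths. Protein-coding transcripts alone, the span to the coding start site of Ccl1, shares among regions of the same width and the 3000 bp stretch were added after the data were seen. 1 gene of the receptor list is not reported here.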

Additional observations from a re-analysis of the deposited data

How the results depend on the processing

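The count of 1 chemokine gene with a covered start site (Ccl2) was the same under every alternative run for it, and the number with a region ranged from 6 to 10 of 10 where a region could count for several genes. It was 5 when each region went to its closest start site, which left Ccl7, Ccl11, Ccl12, Ccl3 and Ccl4 without one. The former number was 6 with regions of at least 1000 bp or narrowed by 200 bp on each side and 10 with a limit of 50 kb. Over all 46 alternative values of the main results, 34 stayed within the limits set and 12 moved. The number of distinct regions assigned to a gene, 15, was 6 with regions of at least 1000 bp, 9 with a limit of 10 kb and 9 with each region given to its closest start site. The covered share of the Ccl2 cluster, 2.86%, was 1.60% with regions of at least 1000 bp, 3.97% widened and 1.75% narrowed by 200 bp, and 1.75% to the protein-coding start site of Ccl1, a span added after the data were seen. That of the Ccl5 cluster, 8.06%, was 5.62%, 10.4% and 5.76% under the first 3 of these. The alternatives that moved these values change the regions or lengths counted by construction. With 1000 bases in place of 250, the genes with a STAT match rose from 2 to 6 and those with an interferon response element match from 0 to 1, in windows that are longer.

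No paired analysis was possible because a single library was used and the values come from no test, and no replicate could be left out. Edges are known to 200 bp, and 12 of the 17 regions are no wider than the median of all regions, so a narrow region or its absence can depend on the depth and calling threshold, which are unknown. The list of untreated islets was not analysed here, and no value separates a region made by the cytokines from one present before them.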
